A study of Mus musculus with 12 samples.

Results

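The chaperones of the endoplasmic reticulum (ER) and the genes of the unfolded protein response were examined in the liver of mice with and without deletion of Phgdh, the first enzyme of serine synthesis, in hepatocytes. The set was a list of 36 genes chosen by name, with earlier results of these data known. All 36 were among the 16916 genes with a probe well above background on all 12 arrays. The list held the ER chaperones Hspa5, Hsp90b1, Hyou1 and Hspa13, the cochaperones Dnajb9, Dnajb11, Dnajc3 and Dnajc10, and the disulfide enzymes Pdia3, Pdia4, Pdia6, P4hb, Ero1l and Ero1lb. It further held the lectin chaperones Calr and Canx, the small luminal proteins Sdf2l1, Creld2 and Manf, and the degradation genes Herpud1, Sel1l, Syvn1, Derl1, Derl2, Edem1, Edem2 and Selenos. The sensors and factors Xbp1, Ern1 and Atf6, the translocon genes Sec61a1, Sec61b, Ssr1 and Ssr3, and the eIF2 phosphatase subunits Ppp1r15a and Ppp1r15b completed it.

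Secreted and membrane proteins enter the ER through the translocon and fold there with the help of BiP, the product of Hspa5, and of lectin chaperones and disulfide isomerases. When unfolded proteins build up, the sensors Ire1, Perk and Atf6 are released, and Ire1 splices the Xbp1 mRNA, Perk phosphorylates eIF2, and Atf6 is cleaved into a transcription factor. Xbp1 and Atf6 then raise the transcription of chaperones and of degradation genes, in part through the ER stress response element (ERSE). Hepatocytes carry a large rough ER because they make most of the proteins of blood plasma.

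The control group, called Floxed, carried homozygous floxed Phgdh alleles (Phgdh flox/flox) without Cre, and the LKO group (Alb+/Cre;Phgdh flox/flox) carried the same alleles with Cre under the albumin promoter. Cre of this kind acts in hepatocytes, so that other liver cells keep the gene, and both groups shared the floxed alleles. Each group had 6 male mice of the C57BL/6 strain, 30 weeks old and fed chow, and the Floxed controls were littermates of LKO mice. On each single-color array, 1 liver was measured. Feeding state and time of day at dissection were not given in the sources used here. In whole liver RNA, fewer cells of a type and less RNA per cell cannot be told apart.

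Floxed 1 to 4 were hybridized on slide 1 and LKO 3 to 6 on slide 3. Slide 2, with Floxed 5, Floxed 6, LKO 1 and LKO 2, was the only one with both genotypes. The 75th percentile of the processed intensity ran from 258 to 473 in the Floxed arrays and from 239 to 427 in the LKO arrays, and the number of arrays sets the precision. Phgdh itself lay between 4.81 and 5.496 in the Floxed mice (median 5.17) and between 4.23 and 5.30 in the LKO mice (median 4.57) on the log2 intensity scale. The log2 fold change was −0.48 (SE 0.18, limma p = 0.45 after Benjamini-Hochberg adjustment over all genes; exact permutation p = 0.035), and −0.05 within slide 2. With normexp background correction it was −0.19. The LKO mice on that slide, the libraries labelled LKO 1 and LKO 2, had Phgdh within the Floxed range, and whether this probe lies in the deleted exons is not given in the sources used here. Of 2 Phgdh probes, 1 passed the filter, and it was among the dimmer ones tested (percentile 8.3 of mean log2 intensity). The paper itself reports the null allele in LKO liver by PCR. It also reports lower Phgdh mRNA and protein there, by qRT-PCR and Western blot. The hepatocyte markers fixed for the check were all well above background on all 12 arrays, 10 of 10. Of the plasma cell markers, Jchain, Derl3 and Sdc1 were well above background on all 12 arrays. Mzb1 and Pou2af1 were so on 11 arrays, and Tnfrsf17 and Irf4 on none.

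In the fit without covariates, no member was called between the genotypes at an unadjusted limma p below 0.05. Of all tested genes, 8.35% were called (3.43% lower and 4.92% higher in LKO). The values of the 2 groups overlapped for every member, while they did not overlap for 0.296% of all genes. Of the 36 members, 33 had a lower mean in LKO, with a median log2 fold change of −0.12. Over all tested genes, 51.2% were lower and the median was −0.0035. The members vary together between mice, as described further below, so the 33 are not 33 independent observations. The smallest limma p of a member before adjustment was 0.070 (exact permutation p = 0.10, Hyou1), and the adjusted p-values of members from limma with Benjamini-Hochberg adjustment lay between 0.66 and 0.997. Over all genes, no gene passed that adjustment, and 1413 passed the unadjusted threshold.

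The 95% intervals of limma reflect the spread between mice for the brightest probes, in the fit without slide. They do not bound the genotype difference itself, because some slides held a single genotype. With slide as a fixed block, Derl2 had a log2 fold change of −0.27, outside its interval of −0.19 to 0.18. The other members stayed inside theirs. Other probes of Hspa13 (−0.51), Dnajc10 (−0.28) and Sec61b (0.20) lay outside the interval of the brightest probe, and the remaining ones inside. For 24 of the 36 members the interval stayed within a 1.5-fold change in either direction, and for 34 within a 2-fold change. Over the members the interval bounds reached from 0.41 times to 1.44 times the Floxed level. The lowest bound belonged to Creld2.

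**Figure D1:**
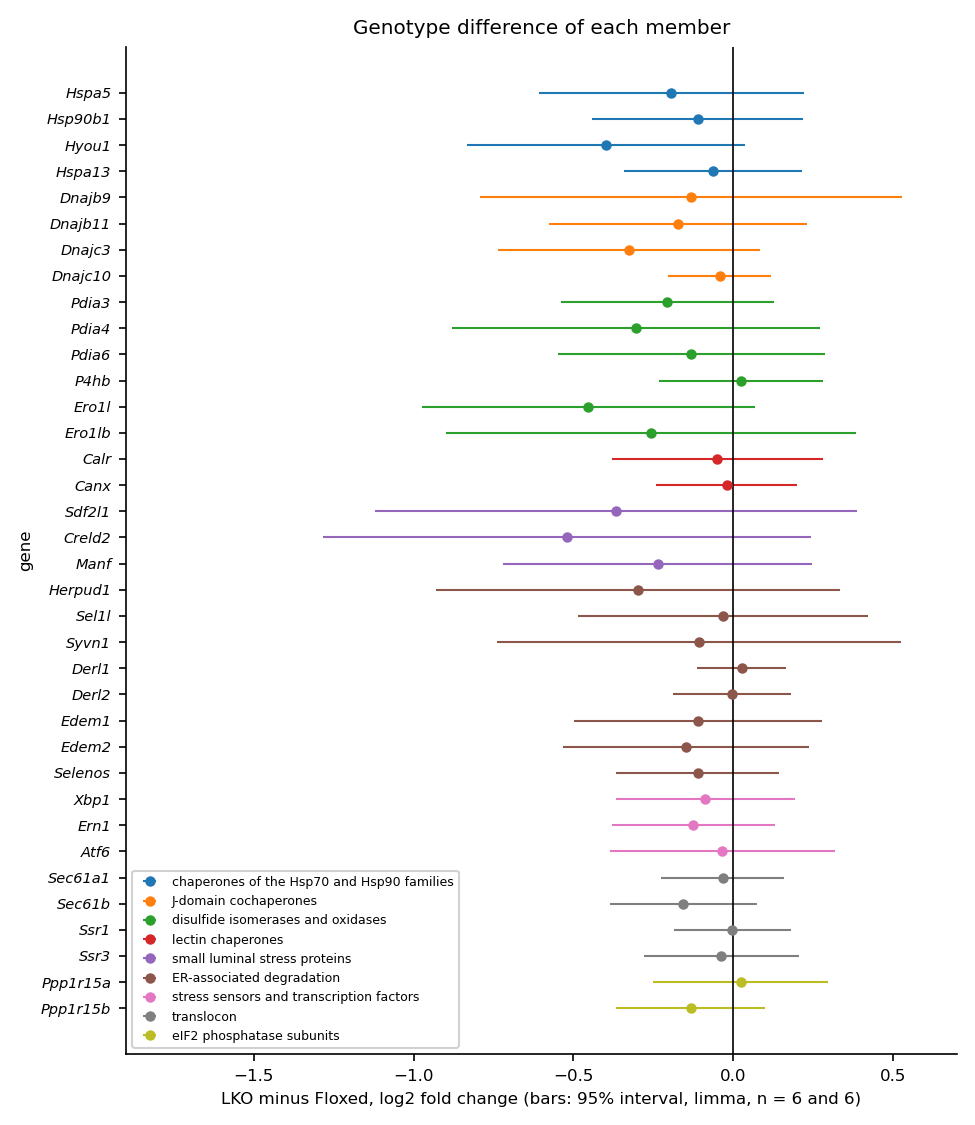
Log2 fold change of each of the 36 members between LKO and Floxed livers, with the 95% interval from limma (6 mice per group), colored by role. The points lie mostly left of 0 (33 of 36), and each of the 36 intervals includes 0.

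Hspa5, the Hsp70 chaperone of the ER lumen that also holds the sensors inactive, had log2 intensities from 14.80 to 15.69 in Floxed mice (median 15.13) and from 14.48 to 15.62 in LKO mice (median 15.001). The groups overlapped over most of their range, and the log2 fold change was −0.19 (SE 0.19, adjusted limma p = 0.93; exact permutation p = 0.39, two-sided, 924 arrangements). Hsp90b1, the Hsp90 chaperone Grp94, lay between 14.81 and 15.51 in Floxed mice (median 15.15) and between 14.65 and 15.41 in LKO mice (median 15.04), with a log2 fold change of −0.11 (SE 0.15). Hyou1, a large Hsp70-like protein that exchanges the nucleotide of BiP, had the smallest p of the set. It lay between 5.94 and 7.20 in Floxed mice (median 6.71) and between 6.00 and 6.67 in LKO mice (median 6.12). The 3 highest values were Floxed, but the lowest was Floxed as well, and the log2 fold change was −0.40 (SE 0.20, adjusted limma p = 0.66; exact permutation p = 0.10). It was −0.22 with normexp background correction, and it passed the unadjusted threshold without Floxed 6 (−0.54), without LKO 3 (−0.48) and without LKO 4 (−0.48), short of Benjamini-Hochberg adjustment each time. Hspa13, an Hsp70-like ATPase of microsomes, had a log2 fold change of −0.06 (SE 0.13) with its brightest probe.

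The J-domain cochaperones deliver substrates to BiP. Dnajc3, known as p58IPK, lay between 10.40 and 11.36 in Floxed mice (median 10.71) and between 10.00 and 10.82 in LKO mice (median 10.42). Its log2 fold change of −0.33 (SE 0.19, adjusted limma p = 0.75; exact permutation p = 0.13) was the largest of the 4 cochaperones, and the groups overlapped. Dnajb11 (ERdj3), Dnajb9 (ERdj4) and the disulfide reductase Dnajc10 (ERdj5) had log2 fold changes of −0.17, −0.13 and −0.04.

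Among the disulfide enzymes, Ero1l, the oxidase that recharges disulfide isomerase, lay between 4.32 and 5.44 in Floxed mice (median 5.13) and between 3.84 and 4.97 in LKO mice (median 4.86). This gave a log2 fold change of −0.45 (SE 0.24, adjusted limma p = 0.70; exact permutation p = 0.15). Its probe was among the dimmer ones that were tested (percentile 6.9 of mean log2 intensity), and the log2 fold change was −0.14 with normexp background correction and −0.31 with scaling to the 75th percentile. Without Floxed 1 it passed the unadjusted threshold (−0.60). Pdia4, the isomerase Erp72, lay between 10.14 and 11.51 in Floxed mice (median 11.05) and between 9.56 and 11.06 in LKO mice (median 10.79), with a log2 fold change of −0.31 (SE 0.27). The remaining enzymes Ero1lb, Pdia3 and Pdia6 had log2 fold changes of −0.26, −0.21 and −0.13. P4hb, protein disulfide isomerase itself, had a log2 fold change of 0.02 (SE 0.12).

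The lectin chaperones, which hold glycoproteins during folding, had small differences between genotypes. Calr lay between 13.35 and 14.05 in Floxed mice (median 13.84) and between 13.40 and 14.04 in LKO mice (median 13.71). Its log2 fold change was −0.05 (SE 0.15) and that of the membrane lectin Canx was −0.02 (SE 0.10). The interval of Canx ran from −0.24 to 0.20.

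The small luminal proteins had the widest spread. Creld2, a secreted protein of the stressed ER, lay between 12.42 and 14.08 in Floxed mice (median 13.18) and between 11.63 and 13.78 in LKO mice (median 12.77). Its log2 fold change of −0.52 was the largest of the set, with a large error (SE 0.35, adjusted limma p = 0.82; exact permutation p = 0.22), and it passed the unadjusted threshold without LKO 4 (−0.73). Sdf2l1, a luminal partner of Dnajb11, lay between 9.82 and 11.73 in Floxed mice (median 11.22) and between 9.74 and 11.35 in LKO mice (median 10.80), with a log2 fold change of −0.37 (SE 0.35, adjusted limma p = 0.92; exact permutation p = 0.37). Manf, which binds BiP, had a log2 fold change of −0.24 (SE 0.22). In each of the 3 genes both groups held high and low mice.

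Of the 8 genes of ER-associated degradation, 7 had a lower mean in LKO and none was called. Herpud1, a membrane scaffold of the ubiquitin ligase complex, lay between 13.67 and 14.74 in Floxed mice (median 14.09) and between 12.84 and 14.50 in LKO mice (median 14.10). Its medians were nearly equal, and the log2 fold change of −0.30 (SE 0.29, adjusted limma p = 0.92; exact permutation p = 0.38) came with LKO 5 (12.84) and LKO 2 (13.29) below the rest. Syvn1, the ligase Hrd1, and its adaptor Sel1l had log2 fold changes of −0.11 and −0.03. The mannosidase-like proteins Edem1 and Edem2 had −0.11 and −0.15, the selenoprotein Selenos −0.11, and the retrotranslocation proteins Derl1 and Derl2 0.03 and −0.00.

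Neither Xbp1 nor a sensor was called, and the groups overlapped in each. Xbp1, the factor made from the mRNA that Ire1 splices, lay between 13.75 and 14.44 in Floxed mice (median 14.15) and between 13.68 and 14.28 in LKO mice (median 14.07), with a log2 fold change of −0.09 (SE 0.13). The spliced share of its mRNA was not measured, and which forms the probe reads was not checked. Ern1, which encodes Ire1, lay between 8.12 and 8.73 in Floxed mice (median 8.46) and between 8.03 and 8.56 in LKO mice (median 8.33), with a log2 fold change of −0.12 (SE 0.12). Atf6 lay between 6.87 and 7.88 in Floxed mice (median 7.43) and between 6.97 and 7.71 in LKO mice (median 7.33), with a log2 fold change of −0.03 (SE 0.16).

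The 4 translocon genes had log2 fold changes between −0.16 (Sec61b, a small subunit of the channel, SE 0.11) and −0.00 (Ssr1). Sec61b passed the unadjusted threshold without Floxed 1 (−0.22). Ppp1r15a, the stress-induced subunit Gadd34 that directs a phosphatase to eIF2, lay between 10.45 and 11.11 in Floxed mice (median 10.55) and between 10.43 and 11.03 in LKO mice (median 10.63). Its log2 fold change was 0.02 (SE 0.13), and that of its constitutive counterpart Ppp1r15b was −0.13 (SE 0.11). Ppp1r15a also belongs to the Atf4 stress response, whose amino acid enzyme Asns had a log2 fold change of −1.18 (SE 0.54, adjusted limma p = 0.60; exact permutation p = 0.087). Asns does not stand for that response as a whole. Of 22 tested genes listed for the Perk and Atf4 branch, 12 were lower in LKO, with a median log2 fold change of −0.02.

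A second probe was at hand for 10 members, and 12 such probes were well above background on all arrays. Of these 12, 1 had the opposite sign to the brightest probe (Sec61b), and 2 had an unadjusted limma p below 0.05, a probe of Hspa13 and a probe of Ssr3. That Hspa13 probe had a log2 fold change of −0.51 against −0.06 for the brightest. Over the 12 arrays the probe pairs of Dnajb11 and of Dnajc10 did not follow each other (r = 0.02 in each), and those of Ssr3 (r = −0.30) and Sec61b (r = 0.19) did so poorly or not at all. For these 4 genes the values hold for the probe used. The other pairs had r from 0.43 to 0.93.

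The lower means rested unequally on the slides. Within slide 2, which holds 2 mice of each genotype, 33 members were lower in LKO with a median of −0.25. When the LKO mice of slide 3 were set against slide 1, 24 were lower with a median of −0.08. There the slide and the genotype cannot be told apart. The log2 difference of Phgdh itself was −0.05 within slide 2 and −0.69 for slide 3 against slide 1. With slide as a fixed block the log2 fold change of Pdia4 was 0.10 and that of Sdf2l1 −0.07. Without LKO 1 and LKO 2, 29 members were lower with a median of −0.08 and none was called. The direction leaned on single mice as well. Without LKO 5 the count fell to 26 with a median of −0.04, and without Floxed 4 or without Floxed 5 it was 26 too, with medians of −0.05 and −0.08.

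**Figure D2:**
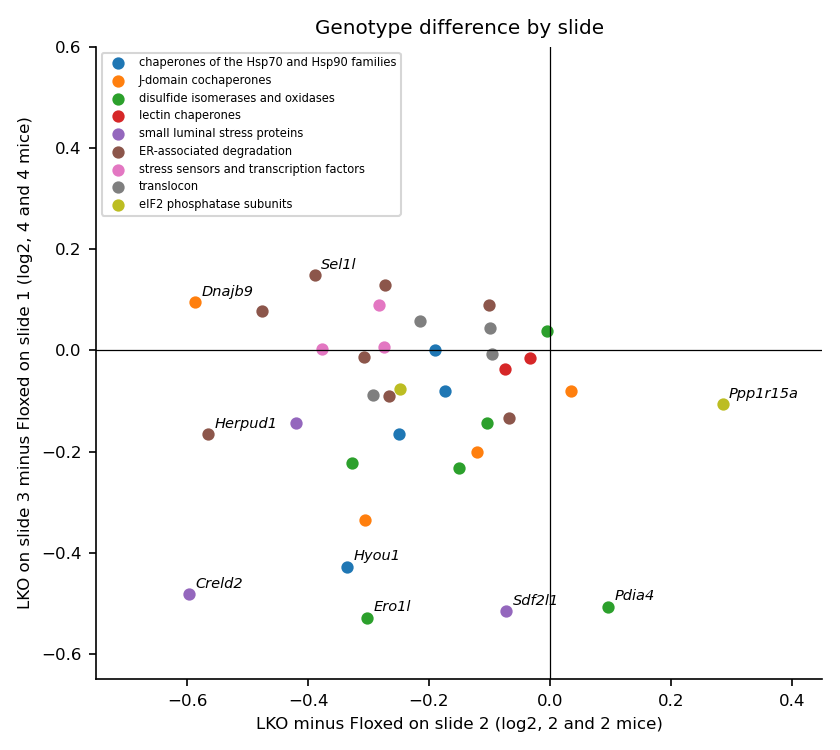
Genotype difference of each member on slide 2 (horizontal, 2 mice per genotype) against the difference between LKO mice of slide 3 and Floxed mice of slide 1 (vertical, 4 mice each), in log2 units and colored by role. On slide 2, 33 of 36 members lie left of 0, while 24 of 36 lie below 0 on the vertical axis.

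Mice of the same genotype differed widely. The standard deviation within genotypes had a median of 0.29 over the members and 0.22 over all tested genes, in log2 units. Creld2 varied 5.47-fold between the lowest and the highest of the 12 mice, Sdf2l1 3.96-fold, Pdia4 3.87-fold, Herpud1 3.75-fold, Ero1lb 3.69-fold and Dnajb9 3.54-fold. At the other end, Derl1 varied 1.15-fold and Dnajc10 1.25-fold. Creld2 stood at percentile 97.9 and Hspa5 at percentile 82.2 of all genes by this standard deviation, and Derl1 at percentile 1.5.

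The variation was shared between members. The mean difference of the members from their own means was 0.38 in Floxed 4, 0.35 in Floxed 5 and 0.27 in LKO 4, and 34, 34 and 32 of the 36 members were above their mean in these mice. It was lowest in LKO 5 at −0.47, where 5 of 36 were above their mean. The other mice lay between −0.19 and 0.17. High and low livers occurred in both genotypes, with a group mean of 0.07 ± 0.26 in Floxed mice and −0.07 ± 0.24 in LKO mice (SD, n = 6 each).

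**Figure D3:**
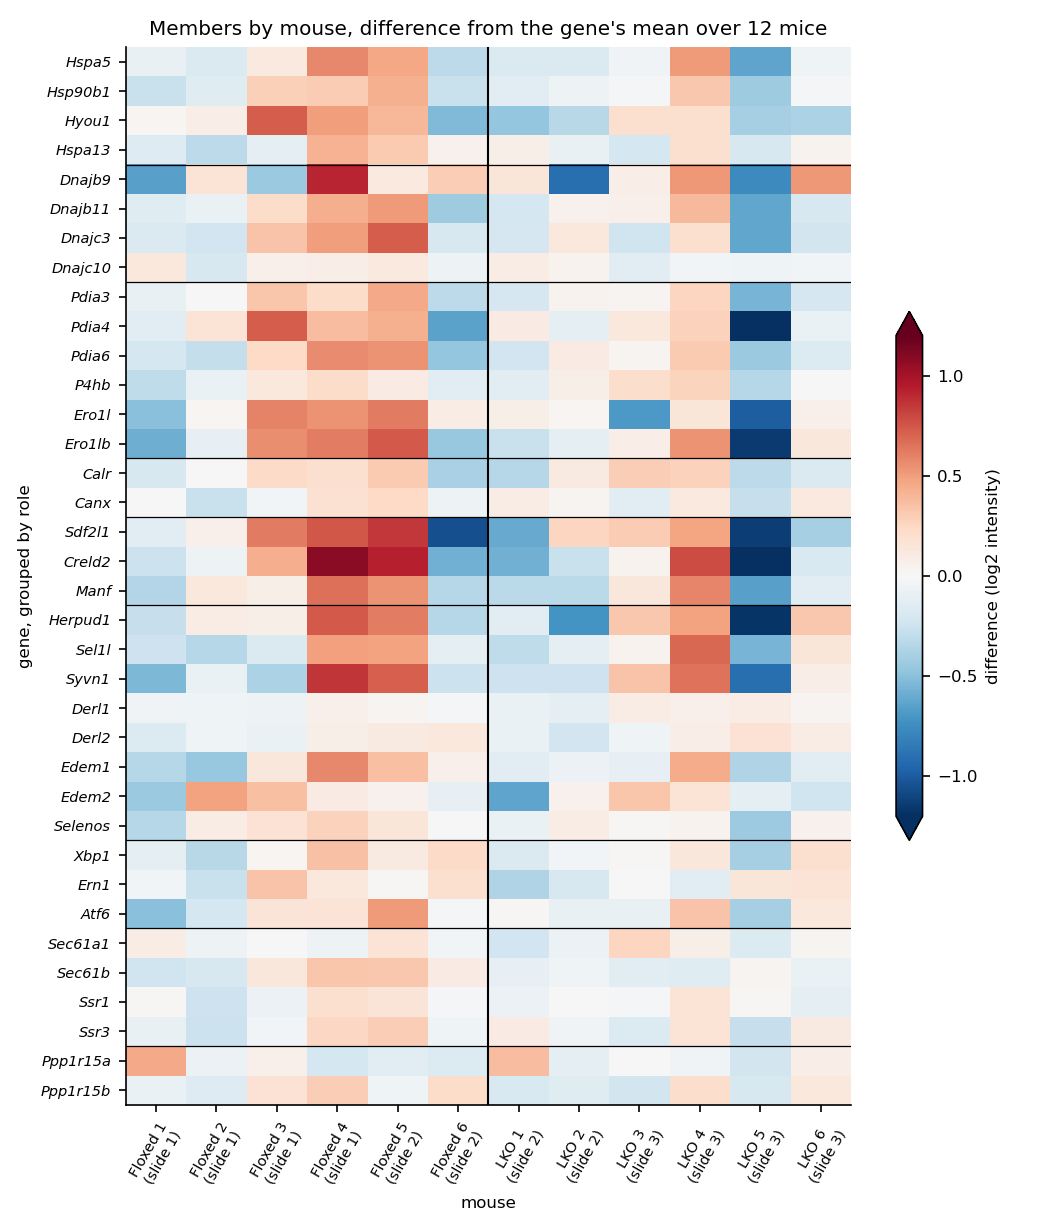
Log2 intensity of each member (rows, grouped by role) in each of the 12 mice (columns), as the difference from the mean of that gene over the 12 mice. Floxed 4, Floxed 5 and LKO 4 are high and LKO 5 is low across the chaperones, while Derl1, Derl2, Ern1 and Ppp1r15a do not share this pattern. The color scale ends at 1.2 in either direction.

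To describe this covariation, each tested gene was correlated with Hspa5 over the 12 mice after centering within genotype. Of the 35 other members, 25 had an unadjusted permutation p below 0.05, all positive, where 17.7% of 16891 genes passed in either direction and 8.83% in the positive direction. No member and no other gene passed Benjamini-Hochberg adjustment (smallest adjusted permutation p = 0.12). The median r was 0.77 over the members and −0.03 over all genes, and 33 of 35 were positive. By Spearman correlation the median rho was 0.74, and 24 members passed the unadjusted threshold against 15.7% of all genes. Among the 20 genes most correlated with Hspa5, 7 were members, and among the first 100, 14 were.

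Creld2 ranked first of all genes (r = 0.98, rho = 0.99, permutation p = 3e-05, adjusted p = 0.12). It encodes a secreted protein known to be induced by ER stress. Dnajb11 was at rank 4 (r = 0.94, rho = 0.96), followed among the members by Sel1l (r = 0.93), Manf (r = 0.93), Hsp90b1 (r = 0.93), Pdia6 (r = 0.92), Ero1lb (r = 0.90) and Syvn1 (r = 0.89). They comprise a cochaperone, a chaperone, a disulfide isomerase, an oxidase, a secreted BiP partner, and both the ligase and the adaptor of the degradation machinery. The correlation was weak for the sensor Ern1 (r = −0.05), for Ppp1r15a (r = −0.08), for Derl1 (r = 0.29) and Derl2 (r = 0.09), for Edem2 (r = 0.23), for Dnajc10 (r = 0.32) and for the translocon subunits Sec61a1 (r = 0.43) and Sec61b (r = 0.36). Dnajb9 (r = 0.575) and Ppp1r15b (r = 0.51) did not pass the unadjusted threshold either. Xbp1 and Atf6 were at r = 0.66 and r = 0.78.

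**Figure D4:**
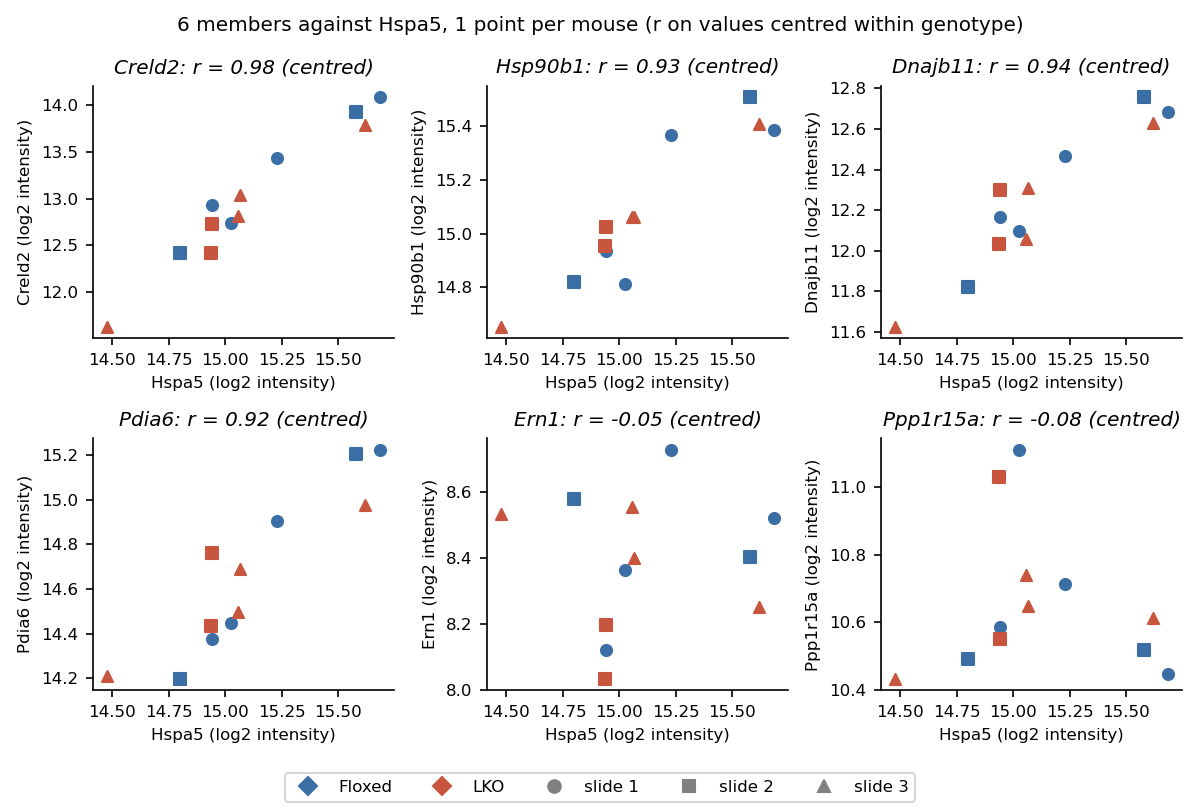
Log2 intensity of 6 members against that of Hspa5, 1 point per mouse, with color for genotype and shape for slide. Creld2, Hsp90b1, Dnajb11 and Pdia6 rise with Hspa5 in both genotypes (r from 0.92 to 0.98 on values centered within genotype), while Ern1 and Ppp1r15a do not (r = −0.05 and −0.08).

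The relation was present in each genotype, with a median r of 0.79 among the Floxed and 0.75 among the LKO mice. Centering within slide as well gave a median of 0.82, with 24 of 35 members at an unadjusted permutation p below 0.05, against 22.8% of all genes in either direction. Leaving out the 2 mice farthest from the median of Hspa5, LKO 4 and LKO 5, gave 0.72, with 15 members below an unadjusted p of 0.05 against 6.19% of all genes. Creld2 then had r = 0.96, Hsp90b1 0.89 and Dnajb11 0.91, while Xbp1 (r = 0.51) and Ero1l (r = 0.52) no longer passed. Sec61b was the member whose sign differed most between the genotypes, at r = 0.76 in Floxed and −0.87 in LKO mice, a difference that was not tested.

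Hspa5 also moved with the brightness of the array. Its correlation with the log2 of the 75th percentile of the processed intensity, taken before normalization, was r = 0.69 (rho = 0.62, permutation p = 0.026 and 0.045, 0.097 and 0.16 after adjustment over 11 relations), and r = 0.53 without LKO 4 and LKO 5. LKO 5, the lowest mouse of the set, had the dimmest array, and Floxed 4, the highest, had the brightest. With brightness taken out of every gene, a step added after seeing the data, the median r of the members was 0.60 and 17 of 35 passed an unadjusted p of 0.05, against 6.48% of all genes. Creld2 (r = 0.97), Dnajb11 (0.92), Manf (0.90) and Hsp90b1 (0.87) changed little, whereas Xbp1 fell to 0.10 and Dnajb9 to 0.24.

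Among the marker lists, the mean of the hepatocyte markers moved with Hspa5 (r = 0.70, rho = 0.67, permutation p = 0.019 and 0.024, 0.097 and 0.16 after adjustment; r = 0.67 without the 2 farthest mice). It ran from −0.07 to 0.10 in Floxed and from −0.16 to 0.01 in LKO mice as a log2 difference from the mean. Lymphocyte markers moved the other way (r = −0.79, rho = −0.59, permutation p = 0.0082 and 0.061, 0.090 and 0.16 after adjustment; r = −0.86 without the 2 farthest mice), over 7 tested of 12 markers and with a range from −0.26 to 0.29 in Floxed and from −0.55 to 0.21 in LKO mice. For plasma cells, which are rich in ER chaperones, r was 0.42 (rho = 0.50, permutation p = 0.20 and 0.12), with 3 of 7 markers tested. The 3 were Jchain, Derl3 and Sdc1. Derl3 holds ERSE and had r = 0.61 with Hspa5, so their mean does not measure plasma cells alone. The mean of the 3 plasma cell markers ran from −0.54 to 1.59 in Floxed and from −1.13 to 0.47 in LKO mice. The stellate cell markers had r = −0.43 (rho = −0.60, permutation p = 0.20 and 0.049, 0.32 and 0.16 after adjustment; r = −0.65 without the 2 farthest mice), and the endothelial markers r = 0.16 (permutation p = 0.64), or 0.73 without those mice. The other 4 marker lists had r between −0.29 and 0.47. The part of array brightness and of these cell types in the covariation was not tested beyond these values.

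The promoters of members were searched for stress response motifs. The members were listed as genes of a response that acts in part through ERSE, so its presence among them is no result of these data. The part of these motifs in the covariation was not tested. RefSeq windows of 250 bases before to 50 bases after the start of transcription (build GRCm38.p6) were at hand for 29 of the 36 members. ERSE was searched on both strands as CCAAT and CCACG with any 9 bases between them. It was in the windows of 9 members, Hspa5, Calr, Hsp90b1, Canx, Pdia6, Ero1lb, Dnajc3, Creld2 and Syvn1, and in 0.137% of all 27025 genes with a window. The matches are shown on the strand that reads CCAAT first, with the fixed letters in capitals and the spacer in lower case, and Hsp90b1 had 2.
Hspa5: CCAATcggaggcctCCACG
Calr: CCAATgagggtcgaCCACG
Hsp90b1: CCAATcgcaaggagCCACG
Hsp90b1: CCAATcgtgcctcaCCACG
Canx: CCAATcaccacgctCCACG
Pdia6: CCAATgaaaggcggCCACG
Ero1lb: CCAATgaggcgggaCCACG
Dnajc3: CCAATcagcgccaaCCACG
Creld2: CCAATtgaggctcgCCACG
Syvn1: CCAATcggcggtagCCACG
The related ERSE-II, searched as ATTGG and CCACG with any 1 base between them, was in the windows of Herpud1 and Dnajb11 and in 0.0444% of all genes.
Herpud1: ATTGGgCCACG
Dnajb11: ATTGGcCCACG
No member held both elements, and that of Dnajb11 begins 8 bases past the start. Herpud1 alone of the members also held the amino acid response element TTGCATCA, found in 1.03% of all genes, and the Xbp1 motif TGACGTGG, found in 0.714%, was in none of the 29.

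The 250 bases before the start are shown for Hspa5, for Creld2 as its closest follower and for Hsp90b1 with its pair of elements, on the strand of the gene with ERSE in capitals. Hspa5 lies at chr2:34771840-34772089 (plus strand), Creld2 at chr15:88819396-88819645 (plus strand) and Hsp90b1 at chr10:86705445-86705694 (minus strand). In Creld2, and in the element of Hsp90b1 nearer to the start, ERSE is on the opposite strand and so reads CGTGG first.
Hspa5: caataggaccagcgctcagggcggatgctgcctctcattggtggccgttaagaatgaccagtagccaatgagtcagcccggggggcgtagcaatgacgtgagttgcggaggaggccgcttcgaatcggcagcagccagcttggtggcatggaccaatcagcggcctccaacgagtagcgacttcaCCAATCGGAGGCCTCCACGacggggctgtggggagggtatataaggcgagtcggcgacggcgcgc
Creld2: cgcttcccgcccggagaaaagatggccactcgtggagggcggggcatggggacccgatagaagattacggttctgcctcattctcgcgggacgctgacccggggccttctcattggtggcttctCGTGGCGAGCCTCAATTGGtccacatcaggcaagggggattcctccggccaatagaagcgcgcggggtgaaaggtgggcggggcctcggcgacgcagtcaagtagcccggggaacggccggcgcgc
Hsp90b1: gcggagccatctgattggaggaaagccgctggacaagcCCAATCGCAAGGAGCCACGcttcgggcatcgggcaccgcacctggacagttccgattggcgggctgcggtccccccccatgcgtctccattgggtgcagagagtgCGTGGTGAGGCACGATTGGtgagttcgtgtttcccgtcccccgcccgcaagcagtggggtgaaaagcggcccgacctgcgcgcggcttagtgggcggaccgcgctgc
All 3 stretches also hold CCAAT or its complement ATTGG outside the capitals, and a match is a description of the sequence, not of a bound factor.

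The 10 members with ERSE or ERSE-II besides Hspa5 all had r with Hspa5 of at least 0.76, up to 0.98, with a median of 0.90. The 18 members with a window but neither element had r from −0.08 to 0.93 with a median of 0.66, and 11 of the 18 had an unadjusted permutation p below 0.05 against 10 of 10, where 17.7% of all genes passed (8.83% in the positive direction). Sel1l, at r = 0.93, was the member most correlated with Hspa5 among those without the element. Outside the set, 28 other genes had ERSE and 9 of them were tested. Their median r was 0.27, and 3 passed the unadjusted threshold (17.7% of all genes), Derl3 (r = 0.61) and Hnrnpa3 (r = 0.61) in the positive and Zfp57 (r = −0.63) in the negative direction. Members with the element had a median log2 fold change between genotypes of −0.15, and those without of −0.11.

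**Figure D5:**
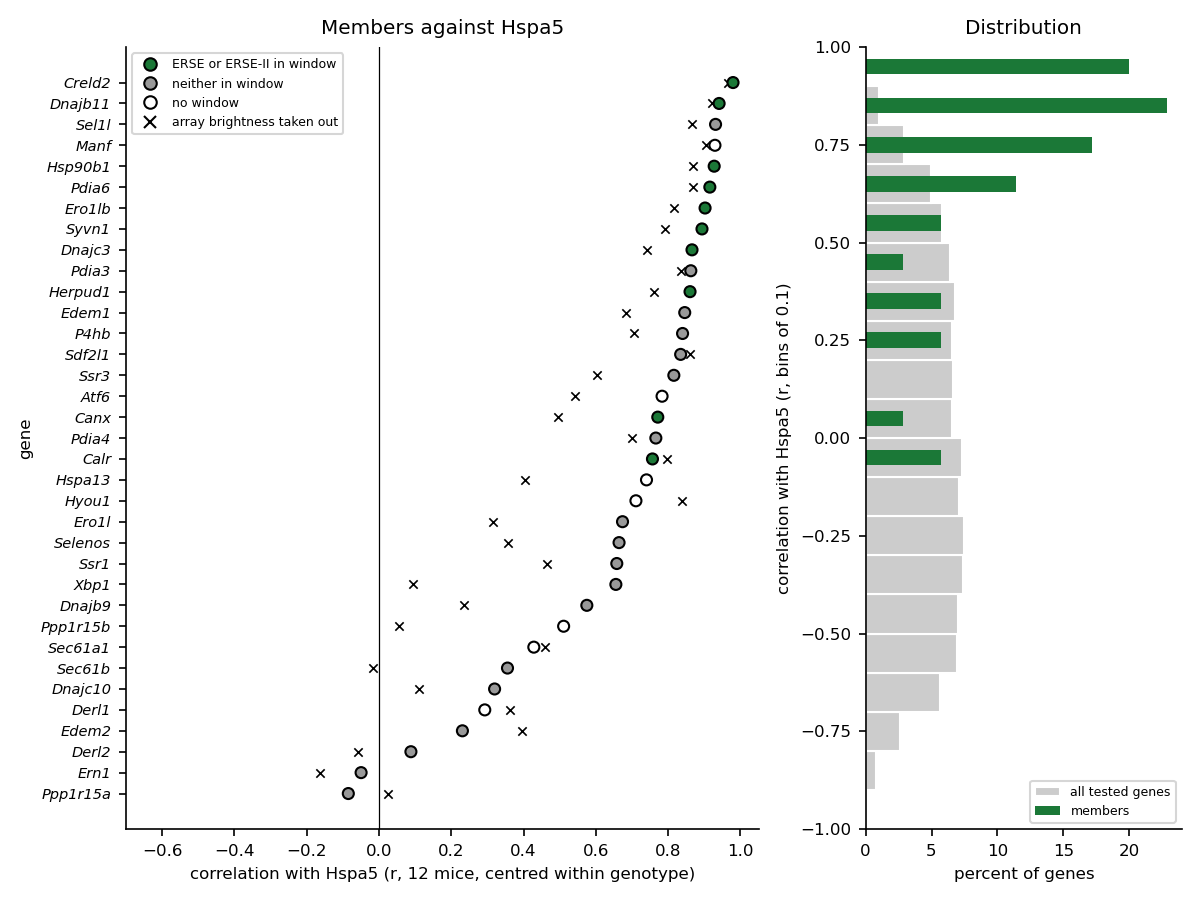
Left, correlation with Hspa5 (r over 12 mice, centered within genotype) for the 35 other members, filled green where the promoter window holds ERSE or ERSE-II, gray where it holds neither and white where no window was at hand, with crosses for r after taking out array brightness. Right, share of members (green) and of all tested genes (gray) by r. The green points lie between 0.76 and 0.98, and the members crowd at the upper end of a distribution whose median over all genes is −0.03.

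Further genes of the same pathways were listed by function, and their calls stand beside 4.92% of all genes called higher and 3.43% called lower in LKO. Among 38 other folding enzymes, none was higher and 1 was lower in LKO, and among 29 other degradation genes and 31 other genes of the translocon, the signal peptidase and the oligosaccharyltransferase none was called. The called enzyme was Tmx3, a membrane-bound disulfide isomerase, which lay between 5.30 and 5.77 in Floxed mice (median 5.504) and between 5.02 and 5.55 in LKO mice (median 5.12). The log2 fold change was −0.33 (SE 0.11, adjusted limma p = 0.39; exact permutation p = 0.022), and −0.02 within slide 2. Among 12 other sensors and membrane-bound factors, Creb3l1, a factor cleaved like Atf6, was called. It lay between 6.15 and 6.63 in Floxed mice (median 6.46) and between 6.45 and 7.003 in LKO mice (median 6.84), with a log2 fold change of 0.34 (SE 0.12, adjusted limma p = 0.43; exact permutation p = 0.026) and 0.02 within slide 2.

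Of 22 tested genes of the Perk and Atf4 branch, 1 was called higher in LKO, the mTOR inhibitor Ddit4 (log2 fold change 0.53, adjusted limma p = 0.50, exact permutation p = 0.035), and 3 lower, Asns, the deleted gene Phgdh and the mitochondrial folate enzyme Mthfd2 (−0.34, adjusted limma p = 0.48, exact permutation p = 0.037). The factor Ddit3, known as Chop, had a log2 fold change of −0.16 (SE 0.24), and the Perk gene Eif2ak3 0.09 (SE 0.20). With Hspa5, 2 of 21 genes of this branch correlated positively at an unadjusted permutation p below 0.05, against 14 of 31 in the translocon group, 9 of 29 among the degradation genes and 8 of 37 among the folding enzymes. The background in this direction was 8.83%. Slc35b1, a nucleotide sugar and ATP carrier (r = 0.96, adjusted permutation p = 0.12), Atp2a2, the calcium pump of the ER (r = 0.95, adjusted permutation p = 0.12), and Hsph1, a cytosolic Hsp70 exchange factor (r = 0.94, adjusted permutation p = 0.15), were the 3 genes outside the set most correlated with Hspa5.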

How the data were processed

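Spot intensity values of each array were deposited by the authors as given by Agilent Feature Extraction (version 9.5.1.1 per the labels and 10.7.1.1 per the file headers), with flags for spots well above background, and a table of normalized probe intensity values. RNA came from the RiboPure kit by the methods, and from TRIzol and a Promega column by the labels. After the study's methods, the log2 of the processed intensity was quantile normalized across arrays. Outlier-flagged spots were left out, spots of a probe were averaged, and the brightest probe per gene was used among those well above background on each of the 12 arrays. This flag took the place of the detection p-value of the methods. Probes were named through their RefSeq accession. Those without a match kept the transcript name given on the array, and each such name was counted as a gene. Genotypes were compared with limma 3.58.1 in R 4.3.3 without covariates, with Benjamini-Hochberg adjustment over 16916 genes, and genes were called by the study's threshold, p below 0.05 before adjustment. Exact permutation tests used all arrangements of 6 against 6. Correlations with Hspa5 used values centered within genotype and 100000 permutations of Hspa5 within genotypes, two-sided, in Python 3.11.15 with numpy 2.4.6. In the main comparison, p-values set the genotype difference against the spread between mice, and slide was not in the fit.

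The members, the pathway lists and the motifs were chosen with earlier results of these data known. Named in full were the 5 members with the largest log2 fold change, 11 members chosen for their role, called genes of the pathway lists (at most 4 per direction) and the 3 genes outside the set most correlated with Hspa5. Scripts were tested on simulated data. Alternatives covered scaling to the 75th percentile, normexp with an offset of 50, the authors' table, filters on dim probes, outlier spots, the mean of a gene's probes, slide and replicate blocks, single slides, other tests and leaving out mice. Slides 1 and 3 alone and the removal of array brightness were chosen after seeing the data.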

Additional observations from a re-analysis of the deposited data

Results flagged for a closer look

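In 3 of 74 groups of 6 mice, a single value stood apart from the others by Dixon's test, where chance gives about 1 in 20 groups, or 3.7. Pdia4 in LKO 5 had a log2 intensity of 9.56, against 10.66 to 11.06 in the other LKO mice. Selenos in LKO 5 had 11.44, against 11.80 to 11.97. Edem1 in LKO 4 had 10.74, against 9.94 to 10.23. LKO 5 and LKO 4 were also the lowest and the highest LKO mouse over the members as a whole.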

How the results depend on the processing

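Of the 1008 single-member fold changes over 28 settings, 989 stayed short of the threshold and moved by less than the spread between mice, 12 moved by more and 7 passed the unadjusted threshold. Signs of small values did turn, and the members lower in LKO numbered from 24 on slides 1 and 3 to 34 without LKO 4. The 7 were Hyou1 with the replicate block, without Floxed 6, without LKO 3 and without LKO 4, Ero1l and Sec61b without Floxed 1, and Creld2 without LKO 4, with adjusted p-values from limma of 0.42 to 0.70. Members called thus numbered 0 to 2 when a mouse was left out, and 1 with the replicate block. The median log2 fold change of the members ran from −0.19 to −0.04 over the settings that left out 1 mouse. Genes called numbered 1413, and 2791 with no filter on dim probes, 317 with slide as a fixed block, 512 on slide 2 alone, 88 when a log2 fold change of 1 or more in size was asked for and 0 after Benjamini-Hochberg adjustment. They ran from 1103 to 2172 when mice were left out, the last without both LKO 1 and LKO 2. Then 571 genes passed the adjustment, none of them a member, and all LKO mice were on slide 3. The Phgdh log2 fold change was −0.19 with normexp and still past the unadjusted threshold, −0.34 with scaling to the 75th percentile, −0.055 with slide as a fixed block and −0.055 on slide 2 alone, the last 3 no longer past the unadjusted threshold, and −0.48 with an adjusted p of 0.45, and from −0.72 to −0.38 without single mice or without LKO 1 and LKO 2. With that scaling, 4 genes correlated with Hspa5 after adjustment, 2 of them members. Members correlated at an unadjusted p below 0.05 numbered 25, from 22 to 27 without single mice, and 15 without LKO 4 and LKO 5. Mice with the same replicate number carry neighboring animal numbers in the labels, which do not say whether they mark a litter. Same-number correlations ran from −0.24 to 0.32, and 2 of 6 Floxed mice correlated best with the LKO mouse of their own number. The numbers were not taken as pairs, but these correlations cannot exclude that they mark litters. With the replicate block, 1428 genes were called. The cause of these changes was not tested. With 6 mice per genotype, and slides 1 and 3 of a single genotype each, the 95% interval reached beyond a 1.5-fold change for 12 of the members.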

Other observations

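Genes of the cytosolic and mitochondrial heat shock response, a list added after the values were seen, were partly high and low in the same mice as Hspa5. Of 19 tested genes, 8 correlated positively with Hspa5 at an unadjusted permutation p below 0.05 and none negatively, beside 8.83% of all genes in the positive direction. They included Hsph1 (r = 0.94), Ahsa1, an activator of Hsp90 (r = 0.89), Chordc1, a partner of Hsp90 (r = 0.84), and Hsp90ab1 (r = 0.75). Hspa1a (r = 0.29), Dnajb1 (r = 0.20) and Bag3 (r = 0.27) did not pass. Between genotypes none of the 19 was called.

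Among the translocon and oligosaccharyltransferase group, 14 of 31 genes correlated positively with Hspa5 at an unadjusted permutation p below 0.05, and among the other folding enzymes 8 of 37, beside 8.83% of all genes. The next 4 genes were chosen for a high r after the values were seen. Stt3b, a catalytic subunit of the oligosaccharyltransferase, had r = 0.88, Sec11a of the signal peptidase had r = 0.86, Rpn1 had r = 0.83, and Uggt1, which tags misfolded glycoproteins, had r = 0.81. None of these correlations passed Benjamini-Hochberg adjustment (adjusted permutation p = 0.17 in each).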
